A study of Arabidopsis thaliana with 6 samples.

Results

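Of the 629 genes that the study lists as associated with ATH1-GFP binding, 196 lay only at places where plants without the tagged protein also gave a peak. ATH1 (ARABIDOPSIS THALIANA HOMEOBOX GENE1) is a BELL-type homeodomain transcription factor of the shoot apex. The 196 genes were chosen by peak positions alone. A region was the stretch of bases under a peak in all 3 ATH1-GFP libraries, and a gene was kept when every region that overlapped its window also overlapped, by 1 base or more, a peak of a wild-type library. The window is the one given in the list of targets, which runs from 3000 nt before to 1500 nt after the coding sequence where no other gene intervenes. A further 7 genes were left out by name, and 3 of them (*RGA1*, *GA2OX6* and *LOX3*) would have met the rule while 4 (*JAZ6*, *ERF104*, *CIPK15* and *CYP707A3*) would not. The presence of a wild-type peak at these genes is therefore what chose them and not a result. The study's own screen kept peaks that passed a false-discovery rate of 0.001 in every ATH1-GFP replicate and in no wild-type replicate. The rule here used all deposited peaks, so it differs from that screen. With peaks of both groups below 0.001 the rule kept 190 genes. Why the study's list holds these genes was not tested.

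Chromatin immunoprecipitation followed by sequencing (ChIP-seq) was performed with anti-GFP microbeads on 3 samples of *pATH1:ATH1-GFP* in the *ath1-3* mutant and on 3 wild-type samples that carry no GFP. The ATH1-GFP plants came from a single transgenic line with 1 transgene copy, in which the *ATH1* promoter drives the fusion. The sample labels give seedlings grown for 2 weeks with 16 h of light, and 1 to 2 g of tissue with leaves and roots removed, for both groups. The labels name Landsberg *erecta* as the wild type whereas the series' design text and the study's methods name Columbia, and the methods also give other growth conditions, so the accession of the controls is uncertain here. Nothing in the labels says whether the 3 samples of a group came from separate sowings, so the spread given below may be partly technical.

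In ChIP-seq, DNA that is crosslinked to a protein is recovered with an antibody, and the recovered fragments pile up where the protein sits. An antibody against GFP has no target in plants without GFP, so a peak in such plants arose without the tagged protein. Peaks were called without a control library, and what gave rise to the wild-type peaks was not tested. BELL proteins such as ATH1 pair with KNOX homeodomain proteins and act in the maintenance of the shoot meristem and of the boundaries of lateral organs.

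The ATH1-GFP libraries held 10194418 to 15584829 tags after removal of duplicates and the wild-type libraries 3450182 to 13518524. The deposited tables gave 1029 to 1634 peaks per ATH1-GFP library and 361 to 688 per wild-type library. Among the wild-type libraries the shallowest, wild type 1, gave 361 peaks and the deepest, wild type 2, 688, whereas among the ATH1-GFP libraries the deepest, ATH1-GFP 3, gave the fewest, 1029. Peak height is given throughout as fold enrichment, the tag pileup at the summit over the background that the peak caller expected in the same library. A library without a called peak has no value, which is not the same as no signal. In all, 743 regions were shared by the 3 ATH1-GFP libraries, and 423 of them met a wild-type peak.

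The windows of the 196 genes held 154 of these 423 regions, or 36.4% of them, while 256 lay outside the window of any listed gene. Among the 622 listed genes that were not left out by name, the 196 made up 31.5%, which is the background for every list below. Most of them, 169 genes, had a single region in their window, 22 had 2, 4 had 3 and 1 had 4. Neighbouring genes often shared a region: 65 regions lay in the windows of 2 of the 196 genes, 5 in those of 3, and 143 of the 196 shared their strongest region with another listed gene. Values given for 2 neighbours of this kind are a single measurement. In the RefSeq annotation 182 of the 196 are protein-coding and 14 are not, and 39 have no description in the list of targets. The mean ATH1-GFP fold over the 154 regions had a median of 2.32, with quartiles of 2.08 and 2.63.

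The 3 wild-type libraries did not contribute equally. Wild type 2 had a peak at 148 of the 154 regions, wild type 3 at 104 and wild type 1 at 25. A peak of all 3 was present at 23 regions, of 2 at 77 and of 1 at 54, and 48 of these 54 met wild type 2 alone. Without wild type 2 the number of genes fell from 196 to 126, and when peaks of at least 2 wild-type libraries were required at every region it was 117.

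Regions met by more wild-type libraries were longer. Their median length was 455 nt where 1 wild-type library had a peak, 640 nt where 2 had one and 1529 nt where all 3 did. The median of the mean ATH1-GFP fold was 2.18, 2.40 and 2.50 in the same order, and that of the mean wild-type fold 2.03, 2.32 and 2.60. ATH1-GFP fold and length thus rose with the number of control libraries. The wild-type means were taken over different libraries, mostly wild type 2 alone where 1 library had a peak, so they are not a like comparison. Over all peaks of a library the median fold was 2.99, 1.98 and 2.38 in wild type 1, 2 and 3. The part of depth in these patterns, with fewer tags in wild type 1 and 3, was not tested.

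The overlap was extensive at most regions. A median of 87.8% of a region's bases (range 7.94 to 100%) lay under a wild-type peak, and 140 of 154 regions were covered over at least 50% of their length. The summits of all 3 ATH1-GFP peaks lay under a wild-type peak at 113 regions (73.4%), and at 4 regions none did. The nearest wild-type summit was a median of 96.5 nt from the middle ATH1-GFP summit (quartiles 23.2 and 192 nt) and within 50 nt at 60 regions. The 3 ATH1-GFP summits of the same regions spanned a median of 224 nt from first to last, against 80.5 nt at the 286 other regions in listed windows. That span is a full range, whereas the 96.5 nt is a distance to the nearest summit, so these measures are not alike. These distances depend on how long the regions are and on how many wild-type summits are available to choose from.

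**Figure D1:**
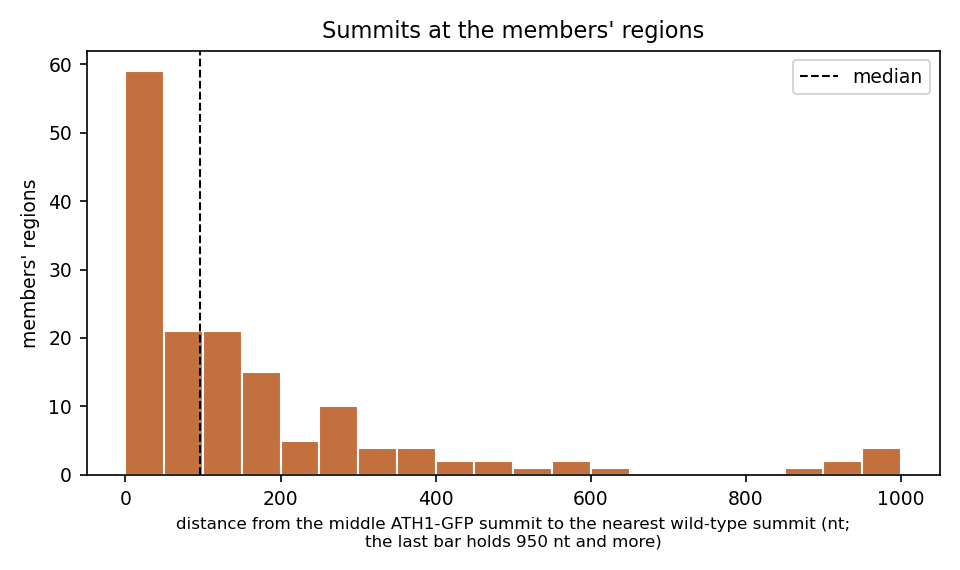
Histogram of the distance in nt between the middle of the 3 ATH1-GFP summits and the nearest summit of an overlapping wild-type peak at the 154 regions, in bars of 50 nt. The dashed line is the median of 96.5 nt; 38 regions had a distance of over 200 nt.

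The regions were longer than the other regions in listed windows. Their median length was 576.5 nt against 356 nt for the 286 others, and 40 of 154 (26%) were longer than 1000 nt against 6 of 286 (2.1%). A longer region can meet a wild-type peak more readily, so length is not independent of the rule. The cause of the difference in length was not tested. Only 6 of the 286 other regions met a wild-type peak, next to a second region in the same window that did not.

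The rule did not use peak height, so height could be compared within each ATH1-GFP library. The median fold enrichment was 2.43, 2.49 and 2.00 at the 154 regions in ATH1-GFP 1, 2 and 3, against 2.55, 2.46 and 1.98 at the 286 others. A region took the fold of the whole peak over it, so a peak that spans several regions entered more than once. The 154 regions met 135, 134 and 147 peaks of ATH1-GFP 1, 2 and 3. The differences, the 154 regions minus the others, were -0.127, 0.0286 and 0.0193, which average -0.0264 ± 0.0874 (SD, n = 3). This was less than the spread between libraries (exact two-sided sign-flip permutation test, p = 1; the smallest p that 3 libraries allow is 0.25). The direction of this difference depended on the measure: the mean fold was lower at the 154 regions in all 3 libraries (difference -0.172 ± 0.127, SD, n = 3; exact permutation p = 0.25, the smallest possible), whereas the pileup at the summit was higher in all 3. At the upper end, 11 of the 154 regions (7.14%) had a mean ATH1-GFP fold above 3, against 53 of the 286 others (18.5%). Only 2 of the 154 were above 4, against 16 others.

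**Figure D2:**
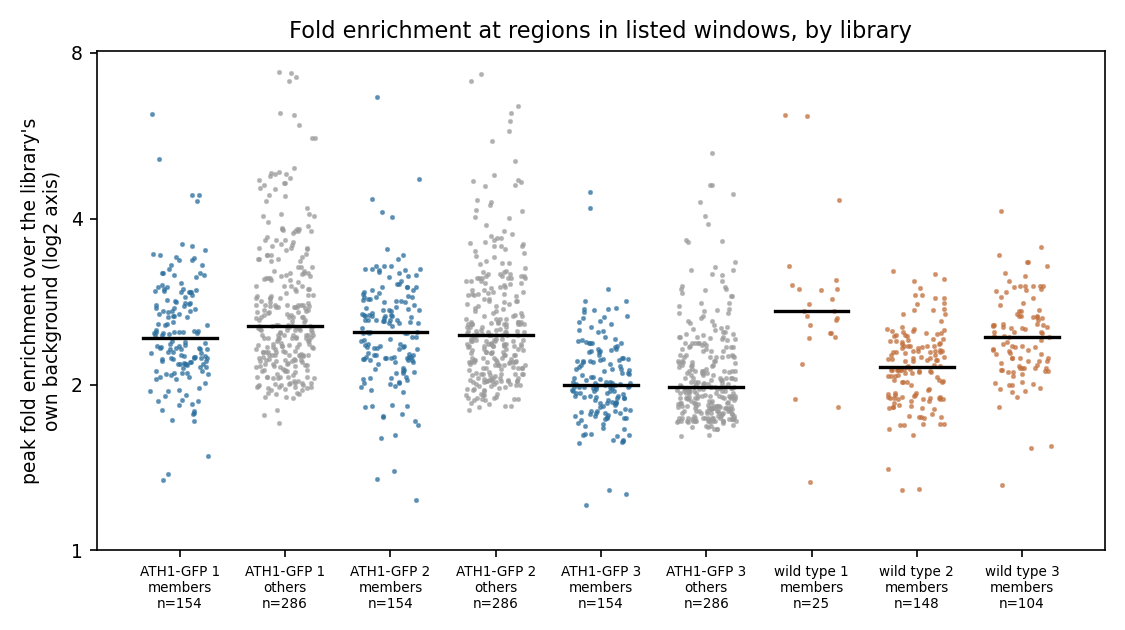
Fold enrichment of the peak with the highest fold at each region in listed windows, by library, on a log2 axis. Blue points are the 154 regions of the 196 genes in the ATH1-GFP libraries, grey points the 286 other listed regions and orange points the wild-type peaks at the 154 regions; black lines are medians, which are 2.43 and 2.55 for the first pair of columns.

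At the same regions the wild-type peaks had folds of a similar size, though their ranks within a library differed. The median fold was 2.72 over the 25 regions with a peak of wild type 1. It was 2.15 over the 148 regions of wild type 2 and 2.44 over the 104 of wild type 3. A peak that spans several regions entered once for each, and the 148 regions of wild type 2 met 128 peaks. The 2.72 of wild type 1 was below the median of all its peaks, 2.99. Ranked among all peaks of the same library, fold had a median percentile of 38.5, 66.1 and 54.4 in wild type 1, 2 and 3. In ATH1-GFP 1, 2 and 3 the median percentile at the 154 regions was 69.3, 70.3 and 62.3. Wild type 2, with 13518524 tags, was the control closest in depth to the ATH1-GFP libraries. Its fold lay within the range of the 3 ATH1-GFP libraries at 88 of 148 regions, below all 3 at 46 and above all 3 at 14. It was higher than ATH1-GFP 3, the deepest library, at 101 of 148 regions, but higher than ATH1-GFP 1 at 26 and ATH1-GFP 2 at 23. Over all wild-type libraries with a peak, the values of the groups overlapped or the wild type was higher at 129 of 154 regions (83.8%), and the wild type was wholly above ATH1-GFP at 16. The 129 are regions where the highest wild-type value reached the lowest ATH1-GFP value. That lowest value was ATH1-GFP 3 at 138 of 154 regions, and at 263 of the 286 others. Overlap at the genes named below likewise needs 1 wild-type value at or above the lowest ATH1-GFP value.

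ATH1-GFP was wholly above the wild type at 25 regions. Of these, 20 were among the 54 regions met by 1 wild-type library, 5 among the 77 met by 2 and 0 among the 23 met by all 3. Every wild-type value had to lie below ATH1-GFP, so this was harder to meet with more wild-type libraries. The counts are therefore partly set by the measure. The ratio of the mean ATH1-GFP fold to the mean wild-type fold had a median of 1.04 and ranged from 0.639 to 2.46, with the second highest ratio at 1.59. Across the 23 regions with a peak in all 6 libraries, mean ATH1-GFP and mean wild-type fold rose together (Spearman's rho 0.888), and across all 154 the value was 0.58. These points share libraries and local sequence context and are given as a description. The folds are each relative to a library's own background, and only called peaks enter, so heights of the groups were not tested against each other.

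**Figure D3:**
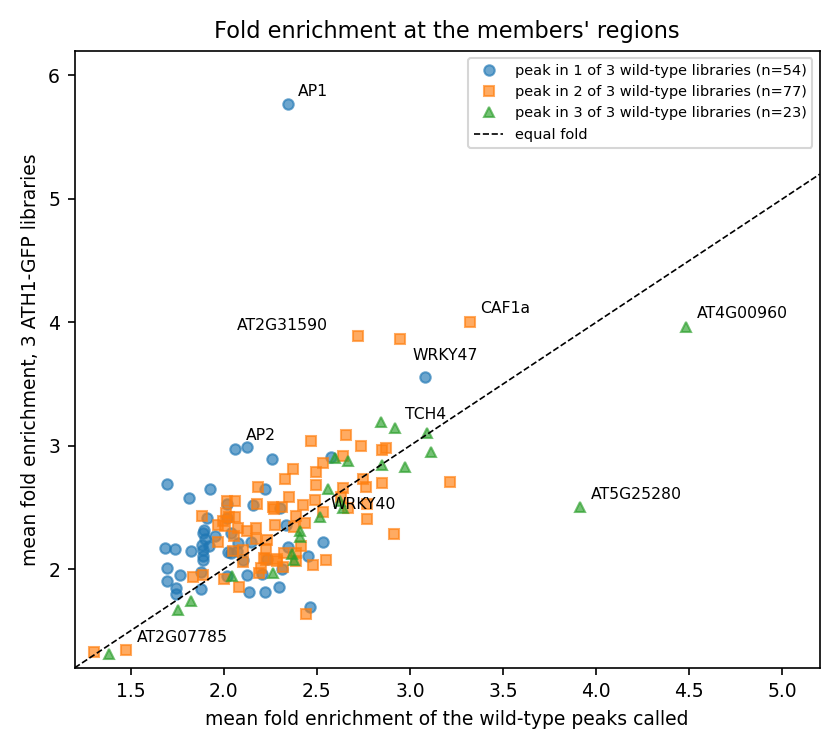
Mean fold enrichment of the 3 ATH1-GFP libraries against that of the wild-type peaks called at the same region, for the 154 regions; symbols give the number of wild-type libraries with a peak. Most points follow the dashed line of equal fold, *AP1* lies far above it (5.77 against 2.34) and *AT5G25280* below it (2.50 against 3.92).

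The gene with the highest ATH1-GFP signal was *AP1* (*APETALA1*), a MADS-box transcription factor that specifies floral meristem identity, together with the neighbouring pre-tRNA gene *AT1G69130*. Their region (TAIR10, chr1:25988689-25989183) had a fold of 6.19, 6.63 and 4.48 in ATH1-GFP 1, 2 and 3 and of 2.34 in wild type 2, with no peak in wild type 1 or 3. All 3 ATH1-GFP values lay above the single wild-type value, and the ratio of the means was the highest of the 154 regions, at 2.46. The wild-type peak covered 63.4% of the region, with its summit 60 nt from the middle ATH1-GFP summit. The position of this and the other regions relative to exons, introns and untranslated regions was not analysed here.

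Next in ATH1-GFP signal was a region shared by *CAF1a*, which encodes a ribonuclease H-like protein of the mRNA deadenylase family, *CYP71B38*, a cytochrome P450, and *AT3G44261* (chr3:15951642-15953130). Fold was 4.31, 4.73 and 2.98 in ATH1-GFP 1, 2 and 3, and wild type 2 and 3 had 3.21 and 3.43. The groups overlapped here, because ATH1-GFP 3 was lower than both wild-type values. This region and that of *AP1* were the 2 above a mean fold of 4.

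Among the regions with a peak in all 3 wild-type libraries, wild-type signal was highest at the protein kinase gene *AT4G00960* and its neighbour *AT4G00955* (chr4:413334-414097). Fold was 6.16, 3.17 and 4.12 in wild type 1, 2 and 3 and ATH1-GFP had 3.60, 4.12 and 4.17, so the groups overlapped. At *AT5G25280*, annotated as encoding a serine-rich protein (chr5:8773609-8774092), the wild type gave 6.13, 2.74 and 2.88 and ATH1-GFP 2.79, 2.62 and 2.09. Wild type 1, the shallowest library, had values over 6 at both. At *AT5G25280* the other wild-type libraries lay within or just above the ATH1-GFP range, while at *AT4G00960* the value of wild type 3 was also the highest of that library at any of the 154 regions. Next among the regions met by all 3 was the one shared by *AT5G11730*, *AGP15* and *AT5G11750*, with 2.97, 2.81 and 3.55 in the wild type and 3.24, 2.97 and 2.65 in ATH1-GFP.

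Judged by the strongest region of each gene, 3 genes had the lowest ATH1-GFP signal. *AT2G07695*, annotated as a cytochrome c oxidase subunit II-like protein, and *AT2G07785*, annotated as an NADH dehydrogenase family protein, shared a region (chr2:3346865-3347195) with 1.38, 1.39 and 1.27 in ATH1-GFP and 1.41 and 1.55 in wild type 2 and 3. Both are annotated as proteins of a mitochondrial type, and chromosome 2 of *Arabidopsis* carries a nuclear copy of mitochondrial DNA. Whether reads of a near-identical copy were placed here was not tested, and the values are uncertain in that respect. *AT3G41761*, listed as other RNA, was lowest of all, with 1.49, 1.24 and 1.21 in ATH1-GFP and 1.33, 1.29 and 1.53 in the wild type (chr3:14192897-14195294). *AT2G08986*, named here after its values were seen, had a weaker second region with 1.34, 1.35 and 1.29 in ATH1-GFP. Among the 286 other listed regions the lowest mean was 1.78.

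Transcription factors of 4 groups were present. Of the 8 listed WRKY factors, which bind W-box DNA and act in defence, 3 (37.5%) were among the 196. *WRKY40*, which encodes a repressor in defence and abscisic acid responses, had 2.38, 2.89 and 2.00 in ATH1-GFP and 2.61, 2.37 and 2.56 in wild type 1, 2 and 3 (chr1:30383734-30385788). Its region of 2055 nt was covered over 88.1% by wild-type peaks and the groups overlapped. *WRKY47* had higher values, 4.41, 4.35 and 2.83 in ATH1-GFP and 3.10 and 2.79 in wild type 2 and 3 (chr4:743968-744418). Its nearest wild-type summit, that of wild type 3, lay 1 nt from the middle ATH1-GFP summit. *WRKY11* had 2.24, 1.83 and 1.78 in ATH1-GFP, against 1.77 in wild type 2, which differed from ATH1-GFP 3 by less than the ATH1-GFP libraries differed from each other.

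Of 12 AP2/ERF factors, 3 (25%) were members, and each met a peak of wild type 2 alone at its strongest region. *AP2* (*APETALA2*), a regulator of floral organ identity and of the floral transition, had 3.39, 3.04 and 2.50 in ATH1-GFP against 2.06 in wild type 2, so that ATH1-GFP lay above the control in all 3 libraries (chr4:17397587-17397958). *RAP2.12*, which encodes a regulator of the low-oxygen response, had 2.80, 2.93 and 2.21 against 2.22 in wild type 2. *RAP2.4* had 2.75, 2.70 and 2.10 against 2.16 at the stronger of its 2 regions. In both cases ATH1-GFP 3 was just below the wild-type value and the other ATH1-GFP libraries above it.

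Zinc finger factors of the C2H2 and CCCH types gave 3 of 12 (25%), and these are genes known for responses to stress. *SZF1*, the salt-inducible zinc finger gene, shared a region of 2665 nt with *ESK1* and had 2.71, 2.67 and 2.31 in ATH1-GFP and 2.33 and 2.65 in wild type 2 and 3. *RHL41* had 2.85, 2.75 and 1.97 against 1.87 and 2.49. *ZF2* had 2.17, 2.13 and 1.95 and met wild type 3 alone, at 2.23, over 34.4% of its region. The groups overlapped at *SZF1* and *RHL41*, and at *ZF2* the wild-type value was above the 3 of ATH1-GFP. The peaks at *ZF2* were offset, however. None of its ATH1-GFP summits lay under the wild-type peak, whose summit was 327 nt from the middle ATH1-GFP summit.

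The group of NAC, MYB, GRAS and LBD factors also gave 3 of 12 (25%), and 4 of 13 (30.8%) with *RGA1*, left out by name, put back. *MYB73* had peaks in all 6 libraries, with 2.50, 2.96 and 2.02 in ATH1-GFP and 2.72, 2.33 and 2.88 in the wild type. Its nearest wild-type summit, that of wild type 1, lay 2 nt from the middle ATH1-GFP summit. *SCL13*, a GRAS family gene, had 2.17, 2.36 and 1.89 against 2.03 in wild type 2. *LBD41*, a LOB domain gene, had 2.34, 2.44 and 1.85 against 2.08 in wild type 3. All 3 showed overlapping values.

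No member came from 3 other lists. None of 13 homeodomain factors, of 13 bHLH and bZIP factors and of 9 genes of the shoot meristem and organ boundary, 32 genes in all because 3 homeodomain genes are on both lists, was among the 196. The 31.5% background applies to all listed genes, and no test was made because the lists were composed with results of these data known. Each of the 32 genes kept all of its regions free of wild-type peaks. Most alternatives could only remove regions or overlaps with wild-type peaks, so a count of 0 was fixed for them. Where regions of fewer ATH1-GFP libraries were used, which could add overlaps, the count was also 0 for all 3 lists. The homeodomain and boundary genes included the KNOX genes *KNAT1*, *KNAT2* and *KNAT6* as well as *BOP1*, *BOP2*, *CUC1*, *LSH4* and *LOB*.

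**Figure D4:**
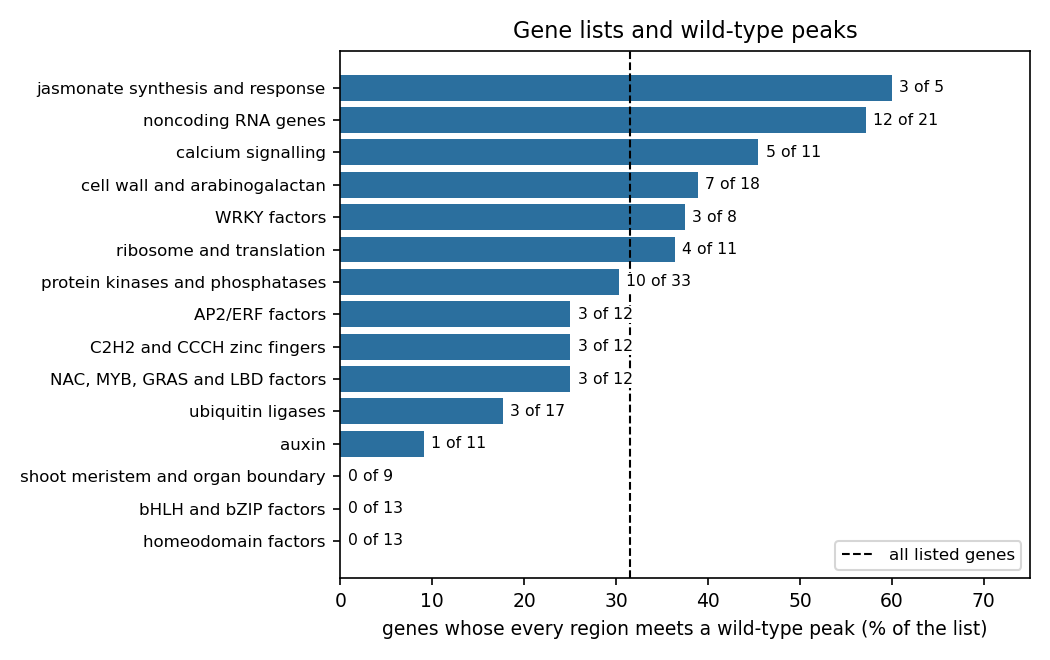
Share of each gene list (in %) whose every region met a wild-type peak, with the number of genes beside each bar. The dashed line is the 31.5% of all 622 listed genes; bars run from 0 of 13 to 3 of 5.

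Of the jasmonate genes 3 of 5 (60%) were members, and 4 of 7 (57.1%) with *LOX3* and *JAZ6*, which were left out by name, put back. *OPR3*, which encodes a 12-oxophytodienoate reductase of jasmonate synthesis, had 2.72, 3.01 and 2.22 in ATH1-GFP and 2.44, 2.73 and 2.52 in wild type 1, 2 and 3 at the stronger of its 2 regions (chr2:2358843-2360605). *JAZ7*, a JAZ repressor gene of jasmonate signalling, had 2.29, 2.34 and 2.22 in ATH1-GFP and higher values of 2.49 and 3.34 in wild type 2 and 3. *AT5G05600*, annotated as a 2-oxoglutarate and iron-dependent oxygenase, had 2.08, 2.26 and 1.76 against 2.47 and 2.48. At *JAZ7* and *AT5G05600* the wild type was wholly above ATH1-GFP. When regions of at least 2 ATH1-GFP libraries were used in place of all 3, the count was 5 of 5.

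Calcium signalling gave 5 of 11 (45.5%). *TCH3*, a touch-inducible gene for a calmodulin-like protein, had 2.57, 2.41 and 2.09 in ATH1-GFP, all above the 2.00 and 1.94 of wild type 2 and 3. *TCH2*, another touch-inducible gene of this kind, had 2.91, 2.73 and 2.02 against 1.80 and 2.23, which overlapped. *CPK28*, a calcium-dependent protein kinase gene, had 2.84, 2.68 and 2.20 against 1.81 in wild type 2, with ATH1-GFP again above the control. The EF-hand genes *AT4G27280* (2.75, 2.79 and 2.12 against 1.93 and 2.19) and *AT3G10300* (2.23, 2.28 and 2.13 against 2.53 in wild type 3) showed overlap and a higher wild type, respectively. Coverage was low in this list: when at least 50% of a region's bases had to lie under a wild-type peak, 2 of the 5 remained.

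Genes of the cell wall and of arabinogalactan proteins gave 7 of 18 (38.9%), in 6 regions. *TCH4*, a touch-inducible xyloglucan endotransglucosylase/hydrolase gene that acts on wall hemicellulose, had peaks in all 6 libraries, with 3.51, 3.19 and 2.74 in ATH1-GFP and 2.57, 2.99 and 3.19 in the wild type (chr5:23306718-23308330). Wild-type peaks covered 98.8% of its region of 1613 nt. *AGP1*, an arabinogalactan protein gene, had 3.00, 3.24 and 2.39 against 2.80, 2.27 and 2.94, and *AGP15* is given above. All 3 had overlapping values in the groups. *LRX3*, an extensin-type gene, had 2.94, 2.48 and 1.95 against 1.85 and 2.17, and *FLA18* had 2.33, 2.35 and 1.98 against 1.82 and 2.12, both overlapping. The pectin methylesterase inhibitor family genes *AT5G62350* and *AT5G62360*, which shared a region, had 1.88, 1.96 and 1.62 and a higher 2.22 in wild type 2.

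Protein kinases and phosphatases gave 10 of 33 (30.3%), close to the background share. *PERK8*, a receptor-like kinase gene, had 2.51, 3.09 and 2.51 in ATH1-GFP and 4.32 and 2.11 in wild type 1 and 2. The kinase gene *AT5G01850* had 3.36, 3.19 and 2.42 against 2.13 in wild type 2, and *AT3G02880*, a leucine-rich repeat kinase gene, 2.24, 2.82 and 2.18 against 2.02. ATH1-GFP was above the control at these 2 and overlapped it at *PERK8*. The PP2C phosphatase gene *AT2G30020* had 2.49, 2.73 and 2.04 against 2.10 and 1.96. The mean ATH1-GFP folds of the other 6 (*AGC1.7*, *AT3G56370*, *AT3G57760*, *AT4G00960*, *AT5G44290* and *AT5G57565*) ranged from 1.96 to 3.96.

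Genes of ubiquitin ligases gave 3 of 17 (17.6%). *RDUF1* had 2.48, 2.67 and 1.86 against 2.20 and 2.14 in wild type 2 and 3, and *RDUF2*, a related RING finger gene, 2.57, 2.33 and 1.91 against 1.75 and 2.35. The third, *AT3G02840*, had 2.24, 2.64 and 2.06 against 1.90 in wild type 2 and so lay above the control. In the auxin list 1 of 11 (9.09%) was a member: *GH3.9*, annotated as a putative indole-3-acetic acid-amido synthetase gene. It shared its region with *GSTF8* and the pre-tRNA gene *AT2G47740* (chr2:19559243-19560132), which had 3.04, 2.82 and 2.22 in ATH1-GFP and 1.69 in wild type 2. The ratio of the means at this region, 1.59, was the second highest after that of *AP1*. The wild-type peak at *GH3.9* fell short of the stricter false-discovery rate of 0.001, under which the auxin list had no member.

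Genes of ribosomes and translation gave 4 of 11 (36.4%), and all 4 met at least 2 wild-type libraries. *EIF2*, annotated as a translation initiation factor gene, had 3.30, 3.43 and 2.57 in ATH1-GFP and 3.10, 2.91 and 3.28 in the wild type, in a region of 2092 nt shared with *HSPRO2*. *AT5G54940*, of the SUI1 family of initiation factors, had 2.46, 2.55 and 2.38 against 2.40 and 2.66. *ATKRS-1*, a lysyl-tRNA synthetase gene, shared the region of *FLA18*, and the ribosomal protein gene *AT5G11750* that of *AGP15*. The groups overlapped in each of these regions. The polyubiquitin gene *UBQ11*, which shared a region with the small nucleolar RNA gene *U49.1* (chr4:2587334-2589359), had 3.45, 3.39 and 2.74 against 2.48, 2.91 and 3.14.

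Noncoding RNA genes gave 12 of 21 (57.1%), against the background of 31.5%. Of these 12, 9 shared their region with another listed gene, as *AT1G69130* did with *AP1*. *AT2G31585*, listed as other RNA, and its neighbour *AT2G31590* had 5.14, 4.03 and 2.49 in ATH1-GFP and 2.87 and 2.58 in wild type 2 and 3. *GUT15*, a gene with an unstable transcript, had 2.94, 2.62 and 2.00 against 2.29 and 2.56 at the stronger of its 2 regions. The *U2.3* small nuclear RNA gene shared its region with the kinase gene *AT3G57760* and had 2.48, 2.74 and 2.02 against 1.91 in wild type 2. The others were *AT5G59732* (2.69, 2.42 and 1.97 against 2.34 in wild type 2), *AT4G36648* (2.15, 2.24 and 2.08 against 2.22 and 1.99), *AT2G24545* (2.11, 2.06 and 1.85 against 1.69) and *AT5G44283* with *AT5G44286* (2.20, 2.49 and 1.96 against 2.15). When peaks of at least 2 wild-type libraries were required, 5 of the 12 remained.

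**Figure D5:**
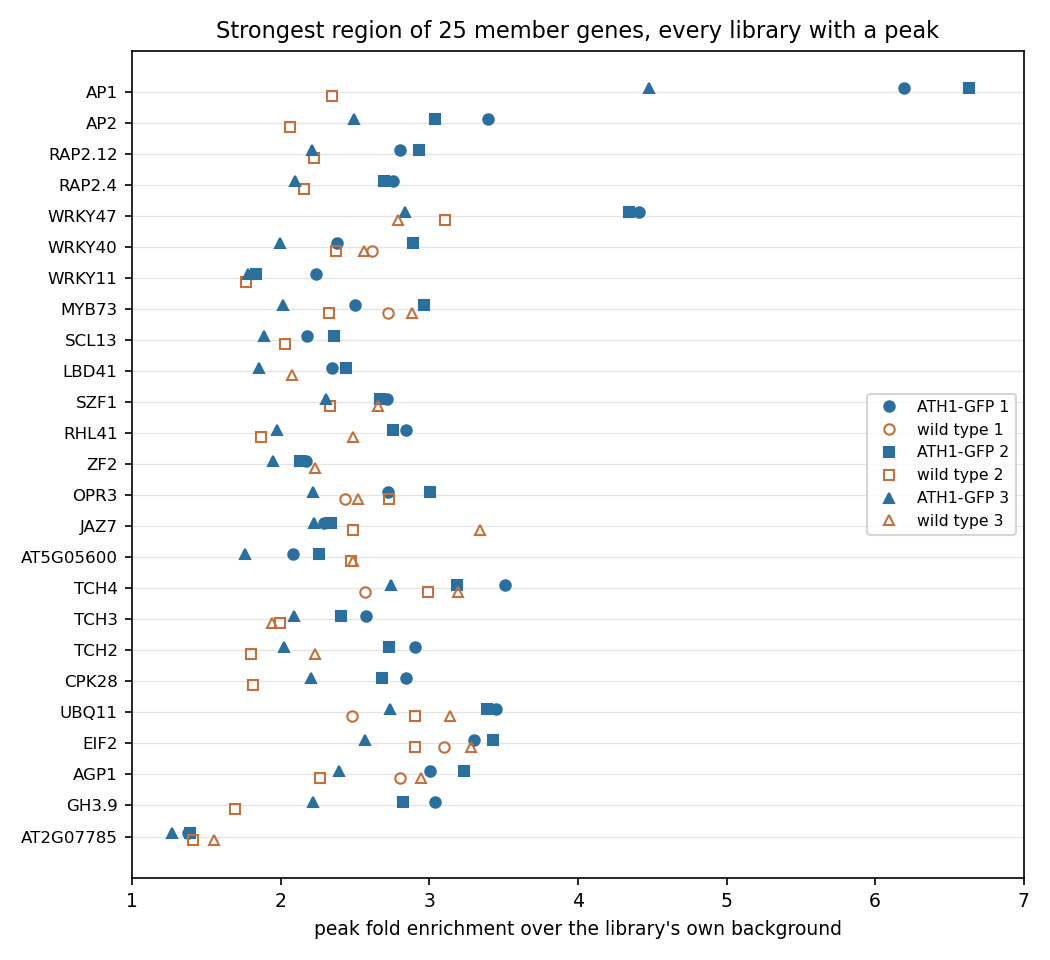
Fold enrichment in every library with a peak, for the strongest region of 25 of the 196 genes. Filled blue symbols are ATH1-GFP 1 to 3 and open orange symbols wild type 1 to 3; *AP1* stands apart at 4.48 to 6.63 against 2.34, and most other genes have overlapping symbols.

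The length shared with wild-type peaks varied from gene to gene. *AT1G65342* had the longest region, 3762 nt with 3760 nt under wild-type peaks, and folds of 2.97, 2.85 and 2.71 in ATH1-GFP and 3.04, 2.80 and 2.72 in the wild type (chr1:24272644-24276405). *AT1G61890*, a MATE efflux family gene, had 3387 nt of its 3 regions under wild-type peaks and *SZF1* 2523 nt. Just inside the rule, *AT1G27090* and *AT1G27100* shared a region of 756 nt of which 60 nt lay under a peak of wild type 2, whose summit was 907 nt away. The fewest shared bases of any gene, 27 nt of a region of 234 nt, belonged to *AT4G36050*. Just outside the rule, *LOX4* kept a region with a mean fold of 1.85 that ended 39 nt from a peak of wild type 2. *SAG20* and *AT3G10986* shared a region with a mean of 2.11 at 49 nt from one. These 6 genes sit close to the threshold on either side.

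The members were not evenly spread over the chromosomes. On chromosome 4, 46 of 94 listed genes (48.9%) were members, and on chromosome 1, 34 of 165 (20.6%), while chromosomes 2, 3 and 5 had 32.2%, 32.8% and 31.1%. Counted by region, so that a region shared by neighbours counts once, chromosome 4 had 38 of 68 (55.9%) and chromosome 1 34 of 122 (27.9%). Because wild-type peaks chose the members, these shares are a description.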

How the data were processed

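The authors mapped the reads of 50 nt with Bowtie2 to TAIR10 and called peaks in each library separately, without a control library, with MACS 2.0.10.20130915 (fragments extended to 300 nt, 1 tag per position, q cutoff 0.05, per the file headers). The deposited fold enrichment is a ratio of the pileup to the local background, the deposited −log10 q-value measures confidence, and the pileup is a signal, the deposited coverage of extended tags at the summit. The positions and the fold enrichment of all deposited peaks were used. The list of targets gave gene windows; its averaged folds and q-values, which are the authors' own means, were not used.

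Regions, overlaps and genes were computed with Python 3.11.15, pandas 2.3.3 and numpy 2.4.6, with a minimum overlap of 1 nt. The regions were checked against bedtools 2.31.1, which gave the same 743 regions, and the code was tested on simulated data. The strongest region of a gene is the one with the highest mean ATH1-GFP fold. Heights were compared by an exact sign-flip permutation test over libraries; the group comparison of positions was fixed by the rule and not tested. Symbols came from the RefSeq annotation of TAIR10.1, in which all 196 genes matched. Genes named were the members of the 15 lists, the extremes of ATH1-GFP and wild-type fold and of overlap, the genes nearest the threshold and neighbours that share a region with these. The members and lists were chosen with earlier results of these data known. The genes' sequences and motifs were not analysed here. Alternatives changed the peak threshold, overlap, libraries and summary.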

Additional observations from a re-analysis of the deposited data

How the results depend on the processing

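The number of genes whose regions all met a wild-type peak was 196. It stayed within 1.5 times that number under 11 of 13 alternatives, and was 117 when peaks of at least 2 wild-type libraries were required. Leaving out 1 library at a time gave 126 to 198 genes, the lowest without wild type 2. Requiring the centre of the region inside the window left 151 genes. The difference in median fold between these genes' regions and the other listed regions (-0.0264) had no stable direction. It was 16.7 tags for the pileup at the summit, 0.0785 for the strongest region of each gene, 0.00746 for peaks below a false-discovery rate of 0.001, and -0.054 to 0.024 with 1 ATH1-GFP library left out. In comparisons chosen after seeing the data it was 0.161 against the 6 other regions that met a wild-type peak and -0.146 for regions of 200 to 600 nt. The cause was not tested. Wild type 1 held 3450182 tags and the other wild-type libraries 6689302 and 13518524, and the part of depth in which regions met a wild-type peak was not tested. A region without a called peak has no value in that library, which does not show that signal was absent. No paired analysis was possible because wild-type values enter no test: the rule fixed which regions have a wild-type peak, and the height test compares regions within each ATH1-GFP library only.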
